A study of Mus musculus with 7 samples.

Results

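The genes described here encode the proteins of the mitochondrial ribosome and of the mitochondrial protein import machinery. They were chosen by name: non-control probes whose gene name in the scanner files begins with Mrpl, Mrps, Timm or Tomm followed by a number. The rule found 144 probes, on 171 spots, of 98 genes among the 55681 non-control probes of the array. By name, 76 of these genes were counted as ribosome genes (47 Mrpl and 29 Mrps) and 22 as import genes (12 Timm and 10 Tomm). Below, large and small subunit genes are those named Mrpl and Mrps. The place of each protein was not checked. The rule uses names and no measured value, though the set was proposed with earlier results of these data known.

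Gene expression was measured on 7 one-colour Agilent arrays of mouse lymph node CD8 T lymphocytes that carry the OT-1 T cell receptor transgene (labelled OT-1het) on a Rag-/- background. All cells had been cultured with 100 nM SIINFEKL, the ovalbumin peptide that OT-1 recognises, for 24 h, and 50 ng of RNA with an integrity number above 8 was labelled with Cy3. The 4 WT and the 3 Lck-/- samples are stated to be biological replicates. The Lck-/- mice carried a knocked-in, doxycycline-dependent Lck, a tyrosine kinase that starts T cell receptor signalling, and had been without dietary doxycycline for 7 days so that this Lck was lost. No doxycycline feeding is given for the WT samples, so diet and the inducible construct cannot be told apart from the loss of Lck.

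Mitochondria translate their own messenger RNAs, which encode core subunits of the respiratory chain, on a ribosome. Its large and small subunits give the Mrpl and Mrps proteins their names. All of these proteins are encoded in the nucleus, made in the cytosol and imported. The TOM complex of the outer membrane (Tomm proteins) receives precursors. The TIM23 and TIM22 complexes of the inner membrane and the small TIM chaperones between the membranes (Timm proteins) pass them on. T cells build new mitochondria when they are activated, and both sets of proteins are part of that growth.

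The probes that the following results turn on are shown first, because several results rest on 1 probe or differ between probes of a gene. Each line gives 30 bases of a probe of 60 bases as the scanner files print it, with the mm9 position of the whole probe. Capitals mark AATAAA, the letters of the usual polyadenylation signal, in the first 4 lines and the bases that differ in the Tomm20 pair.
Mrpl24, chr3:87727296-87727355, plus strand: ttctaaaacaccAATAAAgagacttgagag
Mrpl18, chr17:13104338-13104397, minus strand: atttaaagttagcttctttccacttctgtg
Timm9, brighter probe, chr12:72226471-72226530, minus strand: gggaacctacAATAAActtacagaaacctg
Timm9, dimmer probe, chr12:72236700-72236759, minus strand: acaataggaattcattttcaagtgctttta
Tomm20, brighter probe, chr8:129458446-129458505, minus strand: gtgtttgtgaaaActgAgcattaaaacctt
Tomm20, dimmer probe, same position: gtgtttgtgaaaGctgCgcattaaaacctt
Counted from 1 at the 5′ end of the brighter Tomm20 probe, the dimmer one differs by 3 substitutions, A13G, A17C and G57A. The exon or untranslated region under each probe was not analysed here.

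Values are log2 of the background-corrected signal minus the 75th percentile of that signal on the same array, so 0 is the array's 75th percentile and 1 unit is a doubling. The targeted gene was checked first. On the WT arrays, in label order, the Lck probe read 7.44, 7.67, 7.36 and 6.04, and on the Lck-/- arrays 8.02, 6.21 and 6.17. The array labelled Lck-/- 1 was therefore the highest of the 7 and the array labelled WT 4 the lowest, against their labels. The sources used here do not say whether the probe lies in the deleted part of Lck. All directions below are between arrays as labelled, and the main counts are also given without these 2 arrays.

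The arrays had 46.57% to 61.06% of spots well above background and no saturated spot. The array labelled WT 3 had 1403 non-uniform spots and the array labelled Lck-/- 1 had 422, against 1 to 144 on the other 5. All 9 CD8 T cell markers checked were above background on every array, 2 to 4 of 6 B cell markers were, and 4 to 7 of 10 dendritic cell and macrophage markers were. The 9 NK cell markers had a mean level of -3.23 to -0.64 on the WT arrays and -2.23 to -0.23 on the Lck-/- arrays. Of the 9, 5 to 9 were above background. The highest WT mean (-0.64) was on the array labelled WT 4. The lowest Lck-/- mean (-2.23) was on the array labelled Lck-/- 1. These are the 2 arrays at odds with their Lck label. All 9 NK markers had a positive difference, with a median of 0.95. So did 3 of 3 B cell markers tested (median 0.51) and 6 of 7 dendritic cell and macrophage markers (median 0.39). The difference was also positive for 8 of 9 CD8 T cell markers (median 0.21) and for 57.6% of all genes tested. Beyond a fit with the NK marker level as a covariate, the part of non-T cells in the results was not tested. In such bulk RNA, fewer cells of a type and less RNA per cell cannot be told apart.

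The comparison asks whether cells labelled Lck-/-, 24 h after antigen, hold the same transcripts for mitochondrial translation and import as WT-labelled cells. Of the 98 genes, 97 passed the filter (3 or more arrays of the 7 with the probe well above background), each of them above background on all 7. The 1 gene that did not, Timm8a2, was above background on no array. None of the 97 passed the test (limma, Benjamini-Hochberg adjusted p under 0.05 over all 14847 genes), and 0% of all genes did. At an unadjusted p under 0.05, 1 of the 97 was higher in the Lck-/- arrays and 0 were lower, while 4.92% of all genes were higher and 2.17% lower. The groups did not overlap for 1 gene in each direction, Mrpl24 higher and Mrpl18 lower. Among all genes, 5.09% lay apart with the Lck-/- arrays higher and 2.14% with them lower.

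The differences of the 97 genes, Lck-/- minus WT, were small. Their median was -0.03, with quartiles of -0.08 and 0.04, and the range was -0.30 to 0.47. A difference above 0 was found in 32 genes (33%) and below 0 in 65, whereas 57.6% of all genes tested had a difference above 0. The median of all genes was 0.04. The counts about 0 moved with single arrays. Without the array labelled WT 1, 49 were above and 48 below 0. Without Lck-/- 3, 50 were above and 47 below, and without Lck-/- 2, 22 were above and 75 below. Without both arrays labelled WT 4 and Lck-/- 1, 51 were above and 46 below. In these fits, in that order, the median of all genes was 0.06, 0.06, 0.02 and 0.05. The ribosome median was 0.00, 0.01, -0.09 and 0.01, and the import median -0.02, 0.02, -0.09 and 0.03. Both thus stayed below the median of all genes in each of these fits. Genes of like signal level were not compared. In the main fit, 7 mitochondrial ribosome proteins with other names went the other way, with 6 above 0 and a median of 0.06.

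The size of the differences that the data allow can be read from their intervals, for the scaling and labels used. The intervals do not cover another scaling or wrong labels. Centring each array on its median instead moved the ribosome median from -0.04 to -0.24 and the import median from -0.02 to -0.23. It moved the median of all genes from 0.04 to -0.16. Between the labelled groups, the Lck probe itself had a difference of -0.32 (95% interval -1.59 to 0.94). Whether an array was mislabelled was not tested. The 95% interval of the difference lay within 0.5 log2 units of 0 (1.41-fold) for 76 of the 97 genes (78.4%), against 29.9% of all genes tested. For 96 of the 97 it lay within 1 unit, the exception being Mrpl2 with an interval of -0.51 to 1.08. The median absolute difference was 0.06 for these genes and 0.15 for all genes, and the median standard error was 0.15 against 0.19. Replicate arrays also lay closer together. The median SD was 0.16 among the WT arrays (n = 4) and 0.16 among the Lck-/- arrays (n = 3). For all genes tested it was 0.25 and 0.22. Narrow intervals were not particular to these genes. Of 7 mitochondrial ribosome proteins with other names, 100% had an interval within 0.5 units. So had 84.6% of 13 genes of the presequence motor, peptidases and matrix chaperones. The share was lower in other lists of these pathways, down to 33.3% of 9 nuclear regulators. The part of signal level in this was not tested.

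**Figure D1:**
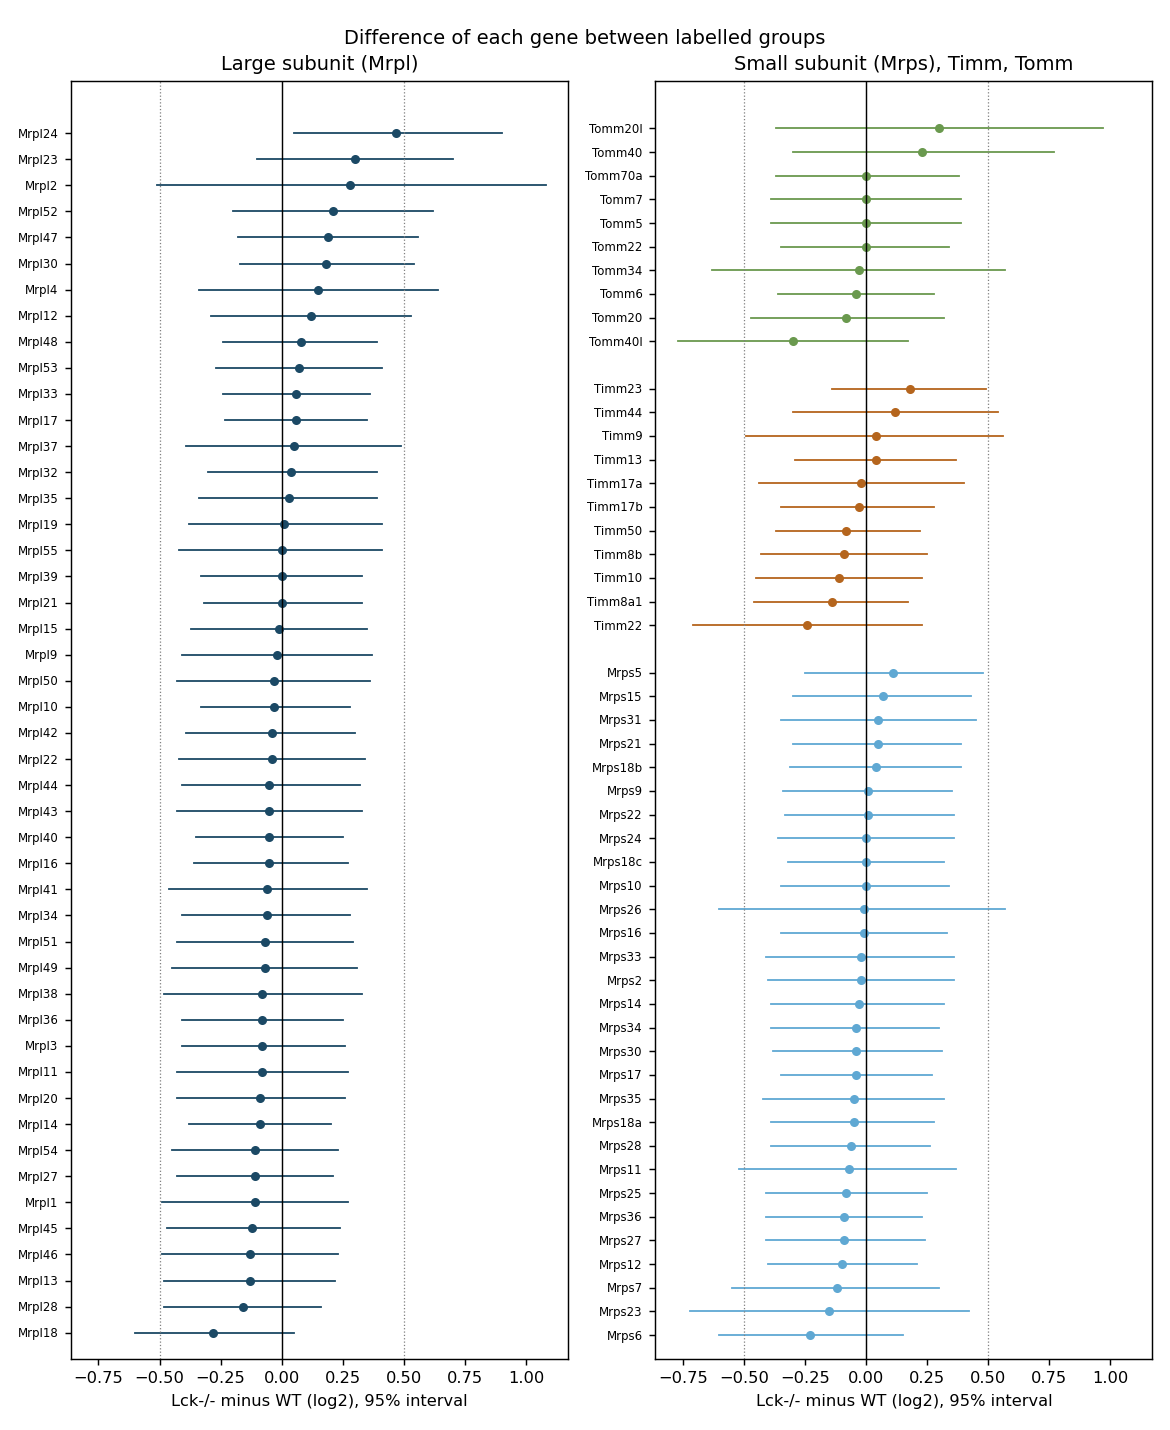
Difference of each of the 97 genes that passed the filter, Lck-/- minus WT on the log2 scale (points), with its 95% interval (lines), for large subunit genes on the left and small subunit, Timm and Tomm genes on the right. Dotted lines mark 0.5 log2 units on either side of 0; the interval of 1 gene, Mrpl24, leaves out 0, and those of 76 genes stay between the dotted lines.

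The 47 large subunit genes had a median difference of -0.04, with 17 above and 30 below 0. Mrpl33 and Mrpl20 were named by the rule for their mean signal, which depends on the probe. Mrpl33 read 7.08, 7.15, 7.02 and 7.03 on the WT arrays and 7.28, 7.11 and 7.00 on the Lck-/- arrays. The groups overlapped, with all 7 arrays within 0.27 log2 units, and the difference was 0.06 (SE 0.13, limma adjusted p = 0.973). Mrpl20 read 7.16, 7.22, 6.84 and 7.12 on the WT arrays and 7.01, 7.13 and 6.85 on the Lck-/- arrays. Here the arrays labelled WT 3 and Lck-/- 3 were the low ones, and the difference was -0.09 (SE 0.15).

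Mrpl24, whose protein lies near the exit tunnel for new polypeptides, had the largest difference of the 97 genes. It read 5.38, 5.48, 5.48 and 5.59 on the WT arrays and 6.36, 5.70 and 5.81 on the Lck-/- arrays. Each Lck-/- array was above each WT array, but the array labelled Lck-/- 1 stood 0.98 units above the lowest array. The difference was 0.47 (SE 0.18, 95% interval 0.05 to 0.90, unadjusted p = 0.0327, limma adjusted p = 0.683). Without the array labelled Lck-/- 1 it was 0.27 (SE 0.15), and without both arrays at odds with their label 0.31 (SE 0.18). Only 1 probe, the one printed above with AATAAA near its 3′ end, measured this gene. Among passing probes of the set without a missing value, 26 with AATAAA had a median difference of 0.02 and 108 without it -0.03. The part of these letters in the Mrpl24 difference was not tested.

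Mrpl18, a protein of the central protuberance, was the one gene with all Lck-/- arrays below all WT arrays. It read 5.60, 5.34, 5.41 and 5.18 on the WT arrays and 5.12, 5.12 and 5.07 on the Lck-/- arrays. The Lck-/- arrays were nearly equal, and the array labelled WT 4 was only just above them. The difference was -0.28 (SE 0.14, 95% interval -0.60 to 0.05, limma adjusted p = 0.753), and -0.35 (SE 0.18) without both arrays at odds with their label. This gene too had a single probe.

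Other large subunit genes moved with single arrays rather than with the groups. Mrpl23, another protein of the exit tunnel, read 5.98, 6.25, 6.18 and 6.20 on the WT arrays and 6.79, 6.33 and 6.25 on the Lck-/- arrays. The array labelled Lck-/- 1 was the high one, and the difference of 0.30 (SE 0.17) was 0.13 (SE 0.15) without it. Its second probe, shifted along the same stretch, gave 0.22 (SE 0.16). Mrpl2, a core protein near the catalytic centre, read 5.92, 5.96, 7.00 and 6.02 on the WT arrays and 7.10, 6.01 and 6.41 on the Lck-/- arrays. The arrays labelled WT 3 and Lck-/- 1, those with the most non-uniform spots, stood above the other 5; the part of spot quality in this was not tested. The difference was 0.28 (SE 0.34), and it was -0.02 without the array labelled Lck-/- 1. Mrpl28 and Mrpl46 had differences of -0.16 (SE 0.14) and -0.13 (SE 0.16).

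The 29 genes named Mrps had a median difference of -0.03, with 7 above and 22 below 0, and none lay apart between the groups. Mrps18b, one of the mammalian homologues of bacterial S18, read 6.48, 6.72, 6.29 and 6.65 on the WT arrays and 6.65, 6.62 and 6.46 on the Lck-/- arrays. Its difference was 0.04 (SE 0.15). Mrps26 read 6.73, 6.24, 6.48 and 6.64 on the WT arrays and 7.04, 6.48 and 6.0 on the Lck-/- arrays, so the Lck-/- arrays held both its highest and its lowest value. Its difference was -0.01 (SE 0.25).

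The largest positive differences in the small subunit were those of Mrps5, 0.11 (SE 0.16), Mrps15, 0.07 (SE 0.16), and Mrps31, 0.05 (SE 0.17). The largest negative one was that of Mrps6, which read 5.88, 5.77, 5.45 and 5.73 on the WT arrays and 5.35, 5.69 and 5.40 on the Lck-/- arrays. The arrays labelled WT 3, Lck-/- 1 and Lck-/- 3 were low and the other 4 high, and the difference was -0.23 (SE 0.16, limma adjusted p = 0.835). Mrps7, a protein of the head of the subunit, showed the same split, with 6.12, 6.09, 5.55 and 6.04 on the WT arrays and 5.73, 6.03 and 5.72 on the Lck-/- arrays. Its difference was -0.12 (SE 0.18). Mrps23 read 5.37, 5.39, 6.06 and 5.38 on the WT arrays and, in the Lck-/- group, 5.35 on array 2 and 5.44 on array 3; the value of the array labelled Lck-/- 1 was left out because its spot was flagged. Its difference, -0.15 (SE 0.24), was 0.02 without the array labelled WT 3.

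**Figure D2:**
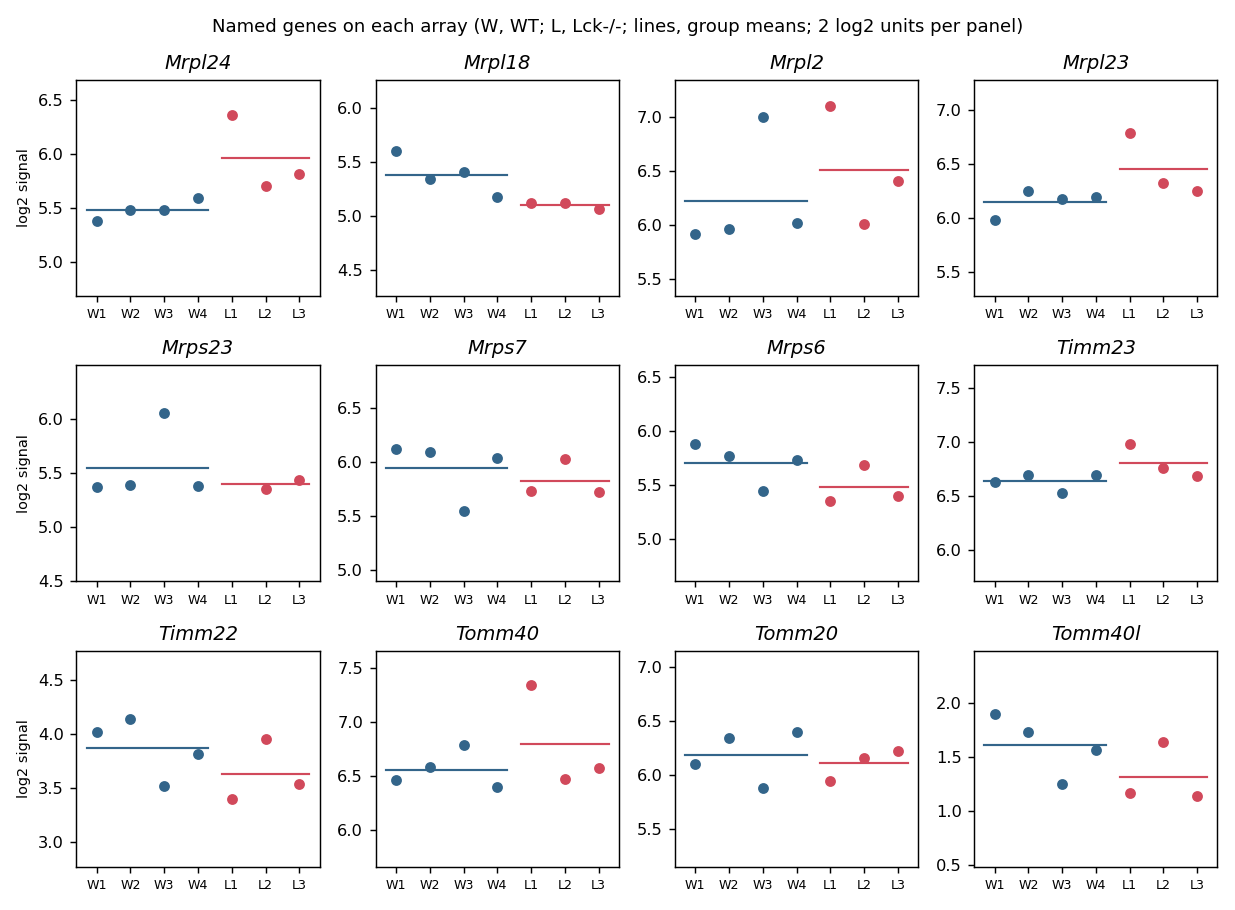
Level of 12 named genes on each array (log2 signal relative to the array's 75th percentile; W, WT; L, Lck-/-), with lines at the group means and 2 log2 units in every panel. The Lck-/- points are all above the WT points for Mrpl24 and all below for Mrpl18, and they overlap in the other 10 panels; Mrps23 has no value for the array labelled Lck-/- 1.

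Of the 11 Timm genes that passed the filter, 4 had a difference above 0 and 7 below, with a median of -0.03 and no gene lying apart. Timm23, the channel subunit of the presequence translocase, had the largest positive one. It read 6.63, 6.69, 6.52 and 6.69 on the WT arrays and 6.98, 6.76 and 6.68 on the Lck-/- arrays, overlapping at the lowest Lck-/- value. The difference was 0.18 (SE 0.14, 95% interval -0.14 to 0.49, limma adjusted p = 0.851). Timm44, which holds the import motor at that channel, had 0.12 (SE 0.18).

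Timm22, the channel that inserts carrier proteins into the inner membrane, had the largest negative Timm difference. It read 4.02, 4.14, 3.52 and 3.81 on the WT arrays and 3.40, 3.95 and 3.54 on the Lck-/- arrays, with the same 3 low arrays as Mrps6, and the difference was -0.24 (SE 0.20). Its small chaperones had differences of -0.14 (SE 0.14) for Timm8a1, -0.11 (SE 0.15) for Timm10 and 0.04 (SE 0.14) for Timm13. By complex, each list here also holds 1 gene that the scanner files give another name and the naming rule therefore leaves out, Timm10b and Timm21. Of the 7 genes tested for the TIM22 translocase and small TIM chaperones, 2 were above 0 and 5 below (median -0.09), with -0.02 for Timm10b. Of the 6 of the TIM23 translocase, 3 were above and 3 below (median 0.00), with 0.03 for Timm21.

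All 10 Tomm genes passed the filter, 4 with a difference above 0 and 6 below. Tomm40, the pore of the outer membrane, read 6.46, 6.58, 6.79 and 6.40 on the WT arrays and 7.34, 6.47 and 6.57 on the Lck-/- arrays. The array labelled Lck-/- 1 stood above the rest, and the difference of 0.23 (SE 0.23) was -0.04 without it. The receptors Tomm20, which binds presequences, and Tomm70a, which binds carrier precursors, had differences of -0.08 (SE 0.17) and 0.00 (SE 0.16).

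The small subunits of the TOM complex had differences at or near 0. Tomm5 read 7.30, 7.12, 6.90 and 7.34 on the WT arrays and 6.96, 7.36 and 7.18 on the Lck-/- arrays, a difference of 0.00 (SE 0.17). Tomm7 and Tomm6 had differences of 0.00 (SE 0.16) and -0.04 (SE 0.14), the first with a flagged value left out on the array labelled WT 2. The 2 paralogues had the widest differences among the Tomm genes. Tomm40l, a relative of Tomm40, read 1.90, 1.73, 1.25 and 1.57 on the WT arrays and 1.17, 1.64 and 1.14 on the Lck-/- arrays. The groups overlapped and the difference was -0.30 (SE 0.20, limma adjusted p = 0.826). Tomm20l, a relative of Tomm20, was measured on dim spots, at -2.60 to -1.31 on the WT arrays and -1.65 to -1.43 on the Lck-/- arrays, and its difference was 0.30 (SE 0.29).

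The ribosome and the import genes were then compared within each array, a contrast in which the scaling of the array cancels. Over the 72 ribosome and 20 import genes without a missing value, the ribosome mean was 4.77, 4.68, 4.52 and 4.74 on the WT arrays and 4.68, 4.74 and 4.58 on the Lck-/- arrays. The import mean was 5.12, 5.04, 4.91 and 5.11 on the WT arrays and 5.03, 5.13 and 4.94 on the Lck-/- arrays. Both means were lowest on the array labelled WT 3 and next lowest on Lck-/- 3. The ribosome mean minus the import mean was -0.35, -0.36, -0.39 and -0.38 on the WT arrays and -0.35, -0.39 and -0.37 on the Lck-/- arrays. The WT arrays averaged -0.37 ± 0.02 (SD, n = 4). The Lck-/- arrays averaged -0.37 ± 0.02 (SD, n = 3), so the groups differed by 0.00. Since probes of different genes cannot be ranked by signal, only its change between arrays is a measurement. The balance of ribosome to import transcripts thus moved by no more than 0.04 log2 units over the 7 arrays.

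The same arrays differed far more in other genes. The mean of 19 mitosis genes, a measure of cells in division, was 3.63, 2.17, 3.19 and 2.12 on the WT arrays and 2.25, 1.40 and 1.33 on the Lck-/- arrays. All 19 had a difference below 0, with a median of -0.99, and none of them passed the test. At an unadjusted limma p under 0.05, 13 were lower in the Lck-/- arrays, against 2.17% of all genes. For 4 the groups lay apart with the Lck-/- arrays lower, against 2.14% of all genes. The mitosis list was chosen with earlier results of these data known. On the array labelled WT 1 the mitosis genes were highest, and so were the ribosome genes; on the array labelled WT 3 they were second highest while the ribosome genes were lowest.

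**Figure D3:**
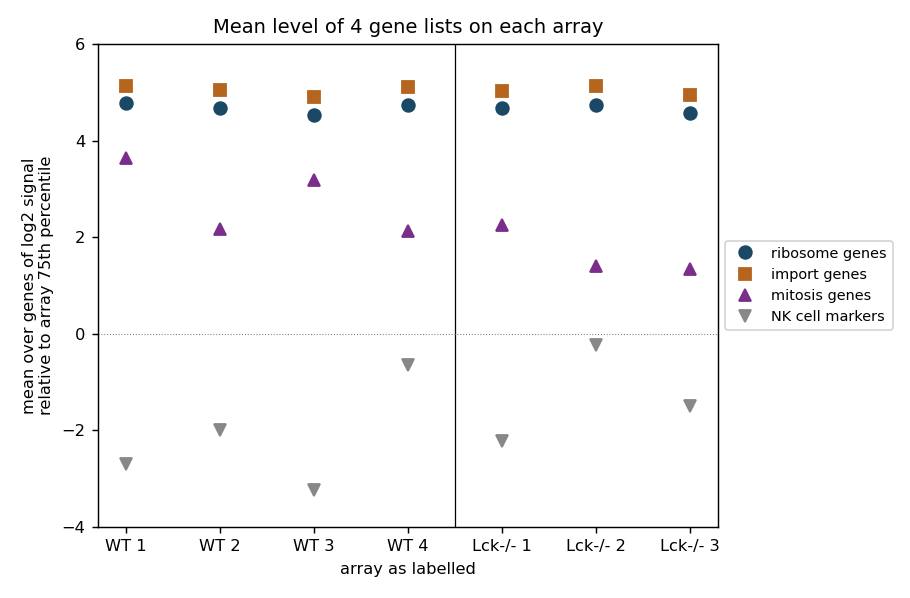
Mean level of the ribosome genes, import genes, mitosis genes and NK cell markers on each array (log2 signal relative to the array's 75th percentile), with WT arrays left of the line and Lck-/- arrays right. The ribosome means stay between 4.52 and 4.77 and the import means between 4.91 and 5.13, while the mitosis means span 1.33 to 3.63 and the NK marker means -3.23 to -0.23.

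Low values lay mostly on the same arrays. Of the 92 genes without a missing value, 44 (47.8%) were lowest on the array labelled WT 3, where 35.5% of all genes tested were lowest. A further 26 (28.3%) were lowest on the array labelled Lck-/- 3, against 15.7% of all genes. The array labelled WT 1 held the highest value for 26 of them (28.3%), against 21.7% of all genes. The median of the range over the 7 arrays was 0.44 for these genes and 0.71 for all genes tested. The 3 probes printed on 10 spots each, for Mrpl34, Mrpl50 and Mrps35, had an SD between spots of 0.019 to 0.14 on an array.

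Probes of the same gene gave differences less than 0.25 log2 units apart in most cases. In 38 genes with more than 1 probe above background, 43 pairs of probes were set against each other, and the median absolute gap between their differences was 0.08. In 40 of the 43 pairs it was under 0.25. The 3 others were Tomm6, Timm9 and Mrpl41, chosen here for that gap and so given without a test of it. The median absolute difference of the genes was itself 0.06, so small gaps do not measure agreement between probes. Some pairs had differences of opposite sign. The Tomm20 probes printed above, which share a genome position and differ by 3 substitutions, gave -0.08 (SE 0.18) and -0.09 (SE 0.16). A probe elsewhere in the gene gave 0.03 (SE 0.14).

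Timm9, a small chaperone that pairs with Timm10, was read by the 2 probes printed above, with 10169 bases of genome between them. The brighter probe read 4.15, 3.66, 3.53 and 4.25 on the WT arrays and 3.74, 4.23 and 3.84 on the Lck-/- arrays, a difference of 0.04 (SE 0.23). The dimmer probe read 1.73, 1.57, 1.49 and 2.05 on the WT arrays and 2.35, 2.21 and 2.07 on the Lck-/- arrays. Here each Lck-/- array was above each WT array, with a difference of 0.50 (SE 0.18, limma adjusted p = 0.670 over all probes).

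For Mrpl41 the brighter probe gave -0.06 (SE 0.18). The other one, at -2.33 to -1.98 on the WT arrays and -1.94 to -1.75 on the Lck-/- arrays, gave 0.36 (SE 0.15) and also lay apart. The second Tomm6 probe was dimmer still and gave 0.76 (SE 0.43), with overlapping groups. Of the 140 probes that passed the filter, none was called when every probe was its own feature. An unadjusted limma p under 0.05 was found for 3, those of Mrpl24 and the dimmer ones of Timm9 and Mrpl41. The shares over all probes were not counted. Over all genes in the main fit, 7.09% had an unadjusted p under 0.05, and 5.09% lay apart with the Lck-/- arrays higher. Transcript forms under these probes were not analysed here.

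**Figure D4:**
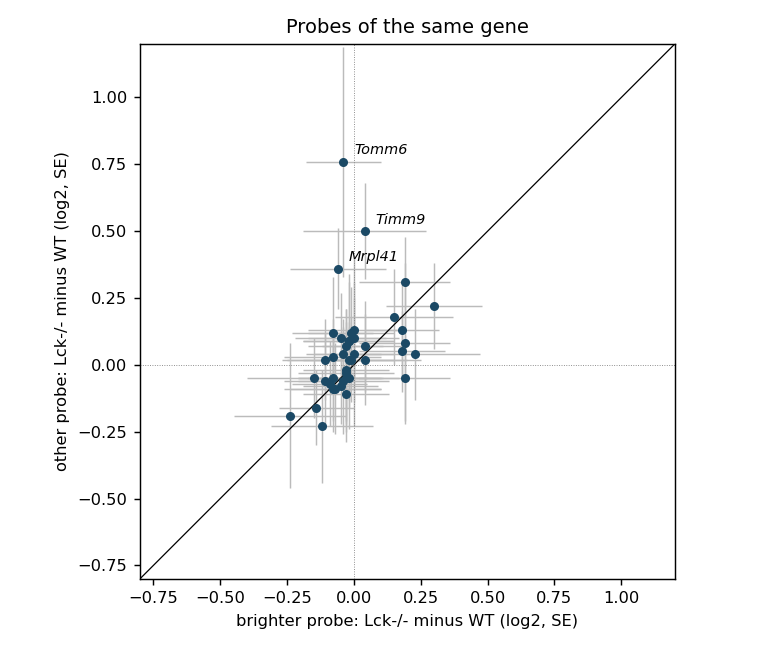
Difference (Lck-/- minus WT, log2, bars 1 SE) of the brighter probe of a gene against that of its other probe, 43 pairs in 38 genes, with the line of equality. Most points lie near 0 and the line; the named pairs of Tomm6, Timm9 and Mrpl41 lie 0.42 to 0.80 above it.

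The promoters of these genes were also set side by side. RefSeq promoters of build GRCm38.p6 (300 bases, most of them before the annotated start) were found for 87 of the 98 genes, 95 promoters in all. They were searched on both strands for the letters of 4 motifs: the consensus of NRF1, a factor named nuclear respiratory factor for its part in mitochondrial genes; CCGGAAG for the ETS family, which includes the GA-binding protein also called NRF2; AAGATGGCG for YY1; and CACGTG, the E-box that Myc binds. Windows of 30 bases show matches in genes named above, with the match in capitals, on the strand of the gene.
Mrpl18, ETS, chr17:12916312-12916341, minus strand: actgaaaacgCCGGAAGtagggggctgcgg
Mrps26, ETS and NRF1, chr2:130563739-130563768, plus strand: gccaCTTCCGGgccggGCGCAGGCGCaggc
Timm23, ETS, chr14:32201920-32201949, minus strand: cgcgcttcccaCTTCCGGgccgcacacagc
Timm10, ETS, chr2:84826994-84827023, plus strand: gtcggcgttttCTTCCGGatcaaagaagag
Tomm20, NRF1, chr8:126945922-126945951, minus strand: gggtccatctGCGCGTGCGCaccaggcgtt
Tomm70a, ETS, chr16:57121623-57121652, plus strand: gccttctgaccCCGGAAGtggttctcccct
Matches on the other strand read CTTCCGG for ETS.

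The ETS letters were in 32 of the 95 promoters (33.7%), against 16.2% of the 14024 promoters of genes tested on the arrays and 8.9% of all 32851 promoters. NRF1 letters were in 14.7%, against 8.9% and 4.6%. YY1 letters were in 9.5%, against 2.7% and 1.4%. E-box letters were in 12.6%, against 9.5% and 7.2%. At least 1 of the NRF1, ETS and YY1 motifs was in 51.6% of the promoters, against 25% and 13.6%. These shares describe letters and no test was made of them. Among the 73 ribosome and 22 import promoters, ETS letters were in 32.9% and 36.4%, NRF1 letters in 16.4% and 9.1%, YY1 letters in 11% and 4.5%, and E-box letters in 9.6% and 22.7%.

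Differences were of similar size in genes with and without a motif. The 30 tested genes with the ETS letters had a median difference of -0.02, the 56 without -0.03. The 14 with the NRF1 letters had a median of 0.00 (range -0.12 to 0.18), and the 9 with the YY1 letters -0.05 (range -0.09 to 0.05). The 10 with an E-box had -0.04.

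**Figure D5:**
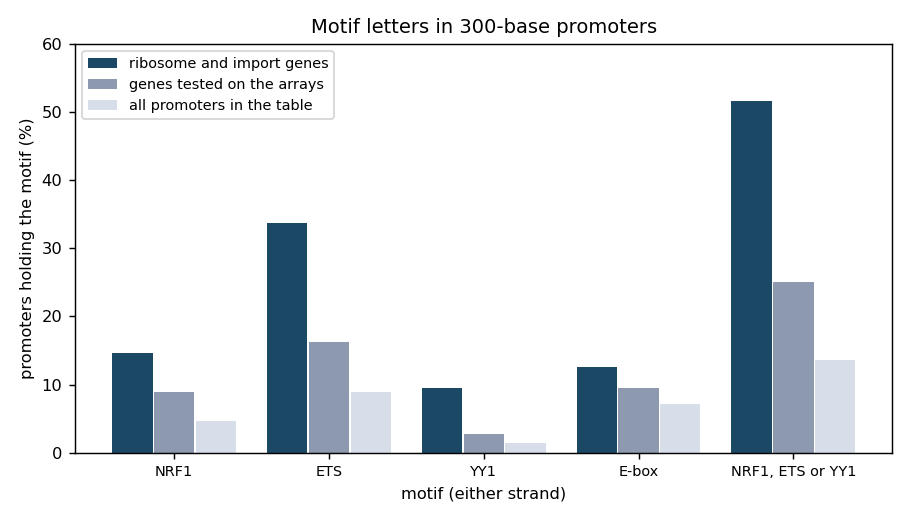
Percent of promoters that hold the letters of each motif on either strand, for the 95 promoters of ribosome and import genes, the 14024 promoters of genes tested on the arrays and all 32851 promoters of the table. The bars of the ribosome and import genes are the highest for each motif, 33.7% for ETS and 51.6% for any of NRF1, ETS or YY1.

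Promoter windows of a gene of each subunit overlapped in 1 neighbouring pair. Mrps11, of the small subunit, and Mrpl46, of the large, lie on opposite strands of chromosome 7, and their windows share 141 bases. The Mrps11 window, chr7:78782881-78783180 on the plus strand, is printed with the overlap in capitals, because a gene of each subunit lies on either side of it.
Mrps11 and Mrpl46: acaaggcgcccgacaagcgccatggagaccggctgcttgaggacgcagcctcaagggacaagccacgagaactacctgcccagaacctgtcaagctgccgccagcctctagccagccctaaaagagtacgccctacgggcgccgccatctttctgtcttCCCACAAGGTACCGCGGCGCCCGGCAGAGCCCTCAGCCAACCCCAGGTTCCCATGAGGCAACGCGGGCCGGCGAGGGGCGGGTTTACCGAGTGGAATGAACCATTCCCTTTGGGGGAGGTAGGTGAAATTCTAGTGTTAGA
Mrps11 read 2.96, 2.66, 2.36 and 2.71 on the WT arrays and 2.60, 2.85 and 2.34 on the Lck-/- arrays, a difference of -0.07 (SE 0.19). Mrpl46 read 3.69, 3.44, 3.24 and 3.60 on the WT arrays and 3.29, 3.50 and 3.27 on the Lck-/- arrays, a difference of -0.13 (SE 0.16). Both were highest on the array labelled WT 1 and lower on WT 3, Lck-/- 1 and Lck-/- 3.

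Other genes of the same pathways were read from lists. Of 7 mitochondrial ribosome proteins with other names, 6 had a difference above 0 and 1 below (median 0.06), with 0.05 (SE 0.15) for Aurkaip1 and 0.16 (SE 0.13) for Mrp63, now named Mrpl57. Of 20 assembly factors of the ribosome, 10 were above and 10 below (median 0.00). The largest difference was -0.44 (SE 0.21) for Fastkd2, on dim spots with a mean of -3.97. Malsu1, which keeps immature subunits from joining, had -0.20 (SE 0.13). Of 12 translation factors, 8 were above and 4 below (median 0.05). None of these genes passed the test.

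Among the translation factors Lrpprc, which stabilises mitochondrial messenger RNAs, lay apart between the groups. It read 5.25, 5.18, 4.92 and 5.24 on the WT arrays and 5.35, 5.45 and 5.37 on the Lck-/- arrays, a difference of 0.24 (SE 0.14, limma adjusted p = 0.780). Tufm, the elongation factor that brings transfer RNAs to the ribosome, had -0.02 (SE 0.14).

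On the import side, 10 of 13 genes of the presequence motor, peptidases and matrix chaperones were above 0 and 3 below (median 0.02). The chaperonin genes Hspd1 and Hspe1 had differences of 0.07 (SE 0.17) and 0.02 (SE 0.14). Of 9 further genes of the mitochondrial membranes and the space between them, 5 were above and 4 below (median 0.04). Of 10 genes of mitochondrial DNA and RNA synthesis, 4 were above and 6 below (median -0.03). Mterf1a had the largest difference, 0.20 (SE 0.18), and Tfam, which packs mitochondrial DNA, had -0.15 (SE 0.17). Of 9 nuclear regulators of these genes, 5 were above and 4 below, with 0.22 (SE 0.19) for Myc and -0.29 (SE 0.21) for Nrf1, the latter with a flagged value left out on the array labelled WT 3. Gabpa, which encodes the DNA-binding subunit of the GA-binding protein and is named after its values were seen, lay apart with the Lck-/- arrays lower. It read 1.71, 1.34, 1.38 and 1.42 on the WT arrays and 1.2, 1.29 and 1.27 on the Lck-/- arrays, a difference of -0.21 (SE 0.14, limma adjusted p = 0.823). None of the genes in these lists passed the test.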

How the data were processed

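Per the file headers, each of the 7 arrays has a scanner file of spot intensity from Agilent Feature Extraction 10.7.3.1. All arrays were on 1 slide. A value table that the authors deposited gives log2 values. The sources used here do not say how they were normalized between arrays. Its columns, with medians of 6.63 to 6.67, had correlations of 0.9994 to 0.9998 with the log2 median spot signal, and it served only as an alternative.

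From the processed intensity, log2 was taken and each array's 75th percentile over non-control spots subtracted. Outlier-flagged spots were dropped before the spots of a probe were averaged. Genes were named through the GRCm38.p6 gene table (27233 probes by accession, 3568 by symbol, 564 by synonym; 1817 kept the file's name, and 22499 without a gene name were not used). Probes needed to be well above background on 3 or more arrays, and the brightest probe by mean over the arrays stood for its gene. Of the 14847 genes tested, 701 lacked at least 1 flagged value, and their fits used the remaining arrays. Groups came from the sample titles. They were compared with limma 3.58.1 in R 4.3.3, by lmFit and eBayes with two-sided p-values adjusted by Benjamini and Hochberg's method over all genes, at a threshold of 0.05. The number of arrays limits the precision. Probe positions are given on mm9 as in the files, and promoters come from RefSeq on GRCm38.p6. The procedure was first tested on simulated data.

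The genes named were those past the threshold, those whose groups did not overlap, and, for each of Mrpl, Mrps, Timm and Tomm, the 2 with the highest mean signal and the 3 with the largest difference in each direction. From each other list the rule took genes past the threshold, the 2 brightest and the 1 with the largest absolute difference. Genes named for their probes or promoters were chosen after their values were seen. The members and lists were chosen with earlier results of these data known. Deviations of arrays with the same title number had correlations of 0.10, 0.06 and -0.03, and with the same file-name number 0.10, -0.42 and 0.16. The highest between a WT and an Lck-/- array was 0.40, for WT 3 with Lck-/- 1, which share neither number. Same-numbered arrays were not treated as pairs. Alternatives covered scaling, background correction, the deposited table, the filter, the probes of a gene, blocks, weights, an NK marker covariate and each array left out.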

Additional observations from a re-analysis of the deposited data

Results flagged for a closer look

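For 32 values, the highest and the lowest of the 4 WT arrays were checked for a gap to the nearest other WT array that exceeds Dixon's critical value for their range, and 3 did. For values not chosen from the data, chance gives about 1 such result in 20. Most genes checked were named for their differences in these same data, so that rate does not hold for them. All 3 were values of the array labelled WT 3, which also had 1403 non-uniform spots. Mrpl2 read 7.00 there against 5.92 to 6.02 on the other WT arrays. Mrps23 read 6.06 against 5.37 to 5.39, and Mrps7 read 5.55 against 6.04 to 6.12. The part of spot quality in these values was not tested. The 3 Lck-/- arrays were too few for this check.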

How the results depend on the processing

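No gene of the 97 was called under any of the 22 alternatives, and the lowest adjusted p was 0.476, with array weights. The median standard error of these genes was 0.15 log2 units, with 4 and 3 arrays. Over all genes, counted under every alternative but that of every probe as a feature, 57 were called without both arrays at odds with their Lck label, 1 with either replicate block, array weights or without WT replicate 1, and 0 otherwise. The ribosome median ran from -0.09 to 0.01 and the import median from -0.09 to 0.02 with single arrays left out, and the ribosome minus import difference from -0.01 to 0.01. Centring each array on its median shifted the median of all genes from 0.04 to -0.16, and with it the ribosome median to -0.24 and the import median to -0.23; 7 genes were then above 0 and 90 below. The ribosome minus import difference was 0.03 after quantile normalization, with or without normexp, -0.03 without the filter and with the mean of a gene's probes, and -0.02 with every probe as a feature. Numbered samples were not taken as pairs: with the title number as a replicate block the ribosome median was -0.01 and the import median 0.01, and with the file-name number -0.03 and -0.01.

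Of the 30 genes named by rule, 15 kept the sign of their difference throughout or had none, and the other 15, whose differences did not pass the test, changed sign somewhere; the cause was not tested. Under median centring the difference was -0.15 for Mrpl33, -0.16 for Mrps18b, -0.09 for Mrps5, -0.14 for Mrps15, -0.15 for Mrps31, -0.16 for Timm13, -0.03 for Timm23 and -0.09 for Timm44. Under quantile normalization it was -0.08 for Mrpl33, -0.05 for Mrps18b and -0.10 for Timm13, and with normexp first -0.08, -0.08 and -0.11. Without both arrays at odds with their label it was -0.03 for Mrpl33, -0.08 for Mrpl2, -0.05 for Timm13, 0.04 for Timm10, -0.09 for Tomm40 and 0.08 for Tomm20. With array weights it was -0.04 for Mrps18b, -0.04 for Mrps31, -0.04 for Timm13 and -0.05 for Timm44. With NK marker signal as a covariate it was -0.03 for Mrps18b, 0.04 for Mrps26, -0.09 for Mrps31 and 0.07 for Mrps23. With a block it was 0.02 for Mrps26 (title number), -0.01 for Mrps15 (file-name number) and 0.01 for Mrps26 (slide row). Timm13 had -0.05 in the deposited table, and Tomm6 0.36 with the mean of its probes. With single arrays left out the range was -0.02 to 0.12 for Mrpl33, -0.02 to 0.54 for Mrpl2, -0.04 to 0.10 for Mrps18b, -0.28 to 0.24 for Mrps26, -0.02 to 0.15 for Mrps15, -0.08 to 0.13 for Mrps31, -0.21 to 0.02 for Mrps23, -0.03 to 0.16 for Timm13, -0.02 to 0.26 for Timm44, -0.17 to 0.01 for Timm10, -0.04 to 0.40 for Tomm40, -0.18 to 0.01 for Tomm20 and -0.11 to 0.05 for Tomm6.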
